A study of Mus musculus with 10 samples.

Results

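Splenic B cells divide into follicular cells, which recirculate through the B cell follicles, and marginal zone cells, which stay at the rim of the white pulp and meet antigens carried by blood. The 10 genes described here mark these states or the pathway that separates them: Cr2, Fcer2a, Cd1d1, Cd9, S1pr3, Cd36, Myof, Notch2, Dtx1 and Cd93. They were taken by symbol from the deposited table of read counts, where all 10 were found among 56893 genes. Their levels were set side by side in B cells with either of 2 guide RNAs, in mock B cells, and in T cells with and without a guide.

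The cells were primary B cells and T cells of mouse spleen, and the guides served CRISPR interference, in which a guide RNA brings a Cas9 that cannot cut to a promoter in order to silence it. The groups were B cells with the guide named sgRNA-P1, B cells with sgRNA-P2, B cells labelled Mock, T cells with sgRNA-P1 and T cells labelled Mock. The guides were aimed at promoters P1 and P2 of Pou2f1, the gene for the octamer-binding factor Oct-1. No T cell library with sgRNA-P2 was analysed here. RNA came from what the labels call selected cells. The sources used here do not give the animals, their age and strain, the means of selection, what the mock cells carried or how long silencing lasted.

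Each group was deposited as 2 columns labelled as replicates, which in every group matched 1 library divided in a fixed proportion, to within 1 read per gene. Since paired columns differed by less than sampling noise, each pair was added up and counts as 1 sample. Depth was 49066261 reads in sgRNA-P1 B cells, 28118839 in sgRNA-P2 B cells, 33842813 in mock B cells, 39352816 in sgRNA-P1 T cells and 71858511 in mock T cells. Levels are given in CPM, read counts scaled for library size and composition, or in RPKM, which also divides by gene length. Values in brackets are 95% counting intervals of a library or of a pair of libraries, and they cover counting error only. With 1 library per group no single comparison has a replicate check, so a size rule of 1.5-fold stands in place of a test.

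Follicular B cells carry much CD23, the low-affinity IgE receptor that Fcer2a encodes, and a moderate amount of CD21, the complement receptor that Cr2 encodes. Marginal zone B cells carry more CD21, little CD23, and more of the lipid-presenting molecule CD1d, the tetraspanin CD9, the sphingosine 1-phosphate receptor S1PR3 and the scavenger receptor CD36. Their formation needs the receptor Notch2 and its ligand Dll1: once cut, the inside part of Notch2 joins the DNA-binding protein RBPJ and switches on genes such as Dtx1. CD93 is carried by transitional B cells, which have lately come from the bone marrow, and is lost as they mature.

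Promoter sequences are shown because both factors of interest have short recognition words: the octamer ATGCAAAT of Oct-1 and the core TGGGAA of RBPJ. RefSeq promoters on GRCm38.p6, each 250 bases before to 50 after an annotated start, were at hand for 8 of the 10 genes, with 10 windows in all and 3 of them for Fcer2a. The 4 printed here hold the core and belong to genes near or under 1 CPM in T cells. Each reads along the gene's strand, and capitals mark TGGGAA or its reverse complement TTCCCA. The Cr2 window lies at chr1:195176670-195176969, the second of the 3 Fcer2a windows at chr8:3690812-3691111 and the Cd36 window at chr5:17835847-17836146, all on the minus strand, and the S1pr3 window at chr13:51408368-51408667 on the plus strand.
Cr2: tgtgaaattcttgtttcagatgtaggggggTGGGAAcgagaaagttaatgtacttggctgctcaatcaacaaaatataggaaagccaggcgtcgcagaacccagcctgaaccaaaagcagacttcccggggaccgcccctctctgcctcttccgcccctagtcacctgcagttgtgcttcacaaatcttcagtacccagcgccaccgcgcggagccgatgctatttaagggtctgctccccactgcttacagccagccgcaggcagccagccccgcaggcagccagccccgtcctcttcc
Fcer2a: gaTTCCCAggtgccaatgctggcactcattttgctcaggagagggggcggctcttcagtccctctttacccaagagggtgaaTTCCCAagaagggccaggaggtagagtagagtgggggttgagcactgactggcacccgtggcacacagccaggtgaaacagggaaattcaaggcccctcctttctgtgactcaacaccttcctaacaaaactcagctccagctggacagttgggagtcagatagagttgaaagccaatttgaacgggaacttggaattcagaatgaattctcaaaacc
Cd36: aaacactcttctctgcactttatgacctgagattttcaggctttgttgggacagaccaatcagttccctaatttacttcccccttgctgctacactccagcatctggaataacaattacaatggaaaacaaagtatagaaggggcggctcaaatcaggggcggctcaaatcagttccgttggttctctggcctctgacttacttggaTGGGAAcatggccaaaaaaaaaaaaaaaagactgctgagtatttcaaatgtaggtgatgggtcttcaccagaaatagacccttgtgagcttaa
S1pr3: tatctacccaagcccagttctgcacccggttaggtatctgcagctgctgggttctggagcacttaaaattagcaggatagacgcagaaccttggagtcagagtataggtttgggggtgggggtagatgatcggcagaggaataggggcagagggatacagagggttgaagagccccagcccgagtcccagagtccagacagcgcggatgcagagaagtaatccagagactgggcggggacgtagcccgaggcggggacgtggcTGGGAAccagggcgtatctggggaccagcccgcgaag

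The octamer, read on both strands as ATGCAAAT or ATTTGCAT, was in 0 of the 10 windows, and 1.74% of all 32851 promoter windows of this length held it. The RBPJ core was in 6 of the 10 windows, against 25.6% of all windows, and no match overlapped another. It began 220 bases before the start in Cr2, 43 before in Cd36, 211 before in Cd9 and 13 after in S1pr3. In Fcer2a it began 248 and 168 bases before the start in the window shown and 205 before in another. The windows of Notch2, Dtx1 and Myof and the first window of Fcer2a held none. A match is a description of letters and not a site shown to be bound.

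In B cells, 0 of the 10 genes passed 1.5-fold against mock with either guide, and the counting interval of every one of them lay inside 1.5-fold. Over all genes 0.735% (74 of 10067) passed for sgRNA-P1 and 0.268% (27 of 10071) for sgRNA-P2, so a count of 0 among 10 genes is what shares this small would mostly give. In T cells, 6 of the 10 genes were below 1 CPM, Cd1d1 and Notch2 were present at a lower level than in B cells, Cd9 at a higher one, and Dtx1 within 1.5-fold. Pou2f1 itself stood at 91.4 CPM in sgRNA-P1 B cells and 86.8 CPM in sgRNA-P2 B cells, against 157 CPM in mock B cells. It stood at 65.7 CPM in sgRNA-P1 T cells, against 138 CPM in mock T cells, where its value is uncertain because 3007 exon bases are shared with Cd247 on the opposite strand.

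**Figure D1:**
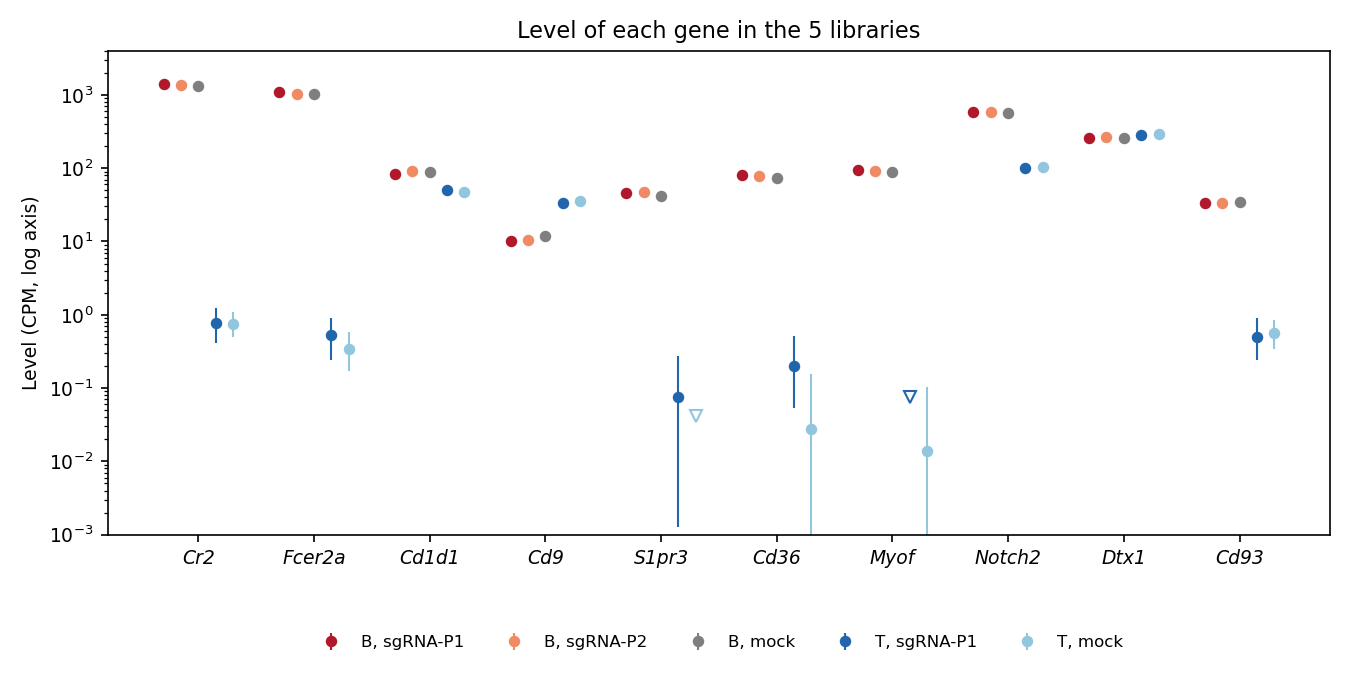
Level of each gene in CPM on a log axis in the 5 libraries, with 95% counting intervals where they exceed the point. Open triangles mark 0 reads and are drawn at the floor of 3 reads. The 3 B cell libraries lie close together for every gene, while Cr2, Fcer2a, S1pr3, Cd36, Myof and Cd93 are below 1 CPM in both T cell libraries.

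Marker genes matched the labelled cell types. The 12 B cell markers summed to 18197 CPM in sgRNA-P1, 18132 CPM in sgRNA-P2 and 17958 CPM in mock B cells, against 384 CPM in sgRNA-P1 and 408 CPM in mock T cells, most of it Ighm. The 12 T cell markers summed to 231, 234 and 226 CPM in sgRNA-P1, sgRNA-P2 and mock B cells, most of it Cd2, against 5720 CPM in sgRNA-P1 and 5819 CPM in mock T cells. In these bulk libraries fewer cells of a type and less RNA per cell cannot be told apart.

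Per gene length, Fcer2a was the highest of the 10 in mock B cells at 337 RPKM, above 99.05% of the 9962 genes with 5 CPM or more. Cr2 followed at 162 RPKM, Notch2 at 52.7 RPKM, Dtx1 at 49.1 RPKM and Cd1d1 at 34.8 RPKM. Cd36 stood at 20.3 RPKM, S1pr3 at 9.44 RPKM, Myof at 7.05 RPKM, Cd9 at 5.75 RPKM and Cd93 at 5.10 RPKM. The order was the same in all 3 B cell libraries but for the last pair: Cd9 was at 4.96 RPKM and Cd93 at 5.06 RPKM with sgRNA-P1, so their ranges over the libraries overlap. The other neighbours in the order did not overlap between libraries. The 10 genes took 0.352 to 0.359% of all reads in the B cell libraries.

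Cr2 (chromosome 1, 194819119 to 194859024, minus strand, in the coordinates of the deposited table, with mm39 the mouse build named in the submitters' processing notes) encodes in mouse both CD21 and, by alternative splicing, CD35, and gene counts cannot separate them. Its level was 1402 CPM [1387 to 1417] in sgRNA-P1 B cells, 1363 CPM [1343 to 1382] in sgRNA-P2 B cells and 1317 CPM [1299 to 1334] in mock B cells. In T cells it was 0.772 CPM with sgRNA-P1 and 0.746 CPM in mock, from 31 and 54 reads. Mock was the lowest of the B cell libraries, and both guide libraries were close above it: log2 0.09 [0.07 to 0.11] with sgRNA-P1, or 1.06-fold, and 0.05 [0.02 to 0.08] with sgRNA-P2.

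The sgRNA-P1 difference turned with the processing. Once the trend of fold changes with gene length and GC content was subtracted, Cr2 stood at log2 -0.04 with sgRNA-P1 and 0.02 with sgRNA-P2. Of all genes, 33.3% had a counting interval that left out 0 for sgRNA-P1 against mock and 11.5% for sgRNA-P2 against mock, so an interval without 0 is common here. Among the 10 genes there were 4 such intervals with sgRNA-P1 (Cr2, Fcer2a, Cd36 and Myof) and 2 with sgRNA-P2 (Cr2 and S1pr3), all above 0.

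Fcer2a (chromosome 8, 3731737 to 3744175, minus strand), the follicular marker, was at 1080.1 CPM [1067 to 1093] in sgRNA-P1 B cells, 1035 CPM [1018 to 1052] in sgRNA-P2 B cells and 1043 CPM [1028 to 1059] in mock B cells. Its T cell levels were 0.523 CPM with sgRNA-P1 and 0.345 CPM in mock, from 21 and 25 reads. The sgRNA-P1 library was the highest and the sgRNA-P2 and mock libraries overlapped in their intervals, with log2 fold changes of 0.05 [0.02 to 0.08] for sgRNA-P1 and -0.01 [-0.04 to 0.02] for sgRNA-P2.

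The balance of CD21 and CD23 RNA, which cytometry uses on the protein level to part marginal zone from follicular cells, was 129.8 Cr2 reads per 100 Fcer2a reads [127.7 to 131.9] with sgRNA-P1, 131.7 [128.9 to 134.6] with sgRNA-P2 and 126.2 [123.7 to 128.7] in mock B cells. The sgRNA-P2 and mock intervals did not overlap, by a small margin, and the sgRNA-P1 interval overlapped both. The balance moved with the processing: with a length and GC trend subtracted, sgRNA-P1 against mock was at log2 -0.04 for Cr2 and 0.11 for Fcer2a, and sgRNA-P1 against sgRNA-P2 at -0.05 and 0.10, which places Cr2 below Fcer2a. For sgRNA-P2 against mock the same step also lowered Cr2, as given above. Whether the small margin between sgRNA-P2 and mock holds after that step is not shown here. Per 100 Fcer2a reads, Cd1d1 had 7.82 reads [7.47 to 8.18] with sgRNA-P1, 8.73 [8.24 to 9.25] with sgRNA-P2 and 8.56 [8.12 to 9.03] in mock. Notch2 had 53.3 [52.2 to 54.4] with sgRNA-P1, 56.1 [54.6 to 57.6] with sgRNA-P2 and 54.5 [53.2 to 55.9] in mock. Dtx1 had 24.1 [23.4 to 24.7] with sgRNA-P1, 25.96 [25.04 to 26.9] with sgRNA-P2 and 24.8 [23.97 to 25.6] in mock. For Cd1d1, Notch2 and Dtx1 the sgRNA-P1 interval lay below the sgRNA-P2 interval, and both overlapped that of mock. For Cd9, S1pr3, Cd36, Myof and Cd93 all intervals overlapped. Read counts of single genes in a bulk library cannot give the share of either cell state. Follicular dendritic cells also carry CD21 and CD23; the 10 markers of these and other stromal cells summed to 9.49, 8.64 and 8.80 CPM in sgRNA-P1, sgRNA-P2 and mock B cells, nearly all Mfge8, with Pdgfrb, Col3a1, Ccl19 and Ccl21a at 0 in every B cell library.

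Of the 5 marginal zone surface genes, 3 lay above mock and 2 below with sgRNA-P1, and 4 above and 1 below with sgRNA-P2, none by 1.5-fold. Their median log2 fold change was 0.10 with sgRNA-P1 and 0.03 with sgRNA-P2, beside medians of all genes of -0.01 and -0.00. Both guide comparisons share the mock library.

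Cd1d1 (chromosome 3, 86903141 to 86906748, minus strand) presents lipids to natural killer T cells. It was at 84.5 CPM [80.8 to 88.2] with sgRNA-P1, 90.4 CPM [85.5 to 95.5] with sgRNA-P2 and 89.4 CPM [84.9 to 93.98] in mock B cells, and at 50.6 CPM with sgRNA-P1 and 46.6 CPM in mock T cells. The 3 B cell intervals overlapped, and all lay above both T cell levels. Its values are uncertain, since 19.1% of its words of 50 bases also occur in the near copy Cd1d2, which was counted at 1.0 to 1.49 CPM in the 5 libraries.

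Cd9 (chromosome 6, 125437229 to 125471754, minus strand), a tetraspanin used to mark marginal zone and B-1 cells, was the scarcest of the 10 in CPM: 10.1 CPM [8.89 to 11.5] with sgRNA-P1, 10.4 CPM [8.74 to 12.2] with sgRNA-P2 and 11.8 CPM [10.2 to 13.5] in mock B cells. In T cells it was at 33.6 CPM with sgRNA-P1 and 35.2 CPM in mock. It gave the lowest fold changes of the 10, log2 -0.21 [-0.49 to 0.06] with sgRNA-P1 and -0.18 [-0.50 to 0.14] with sgRNA-P2, and both intervals include 0. A difference of that size was not detectable at this depth. Cd9 shares 218 exon bases with Gm26728 on the opposite strand, which had at most 4 reads in any library, and 14.4% of its words of 50 bases occur in other genes.

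S1pr3 (chromosome 13, 51562675 to 51576833, plus strand) is one of the receptors that let marginal zone cells sense sphingosine 1-phosphate of the blood. It was at 45.4 CPM [42.7 to 48.2] with sgRNA-P1, 48.0 CPM [44.4 to 51.7] with sgRNA-P2 and 42.1 CPM [39.1 to 45.3] in mock B cells, against 3 reads in sgRNA-P1 T cells and 0 reads in mock T cells. The log2 fold change was 0.11 [-0.03 to 0.25] with sgRNA-P1 and 0.19 [0.03 to 0.34] with sgRNA-P2, the highest of the 10 for that guide. Among the other 9 genes of the S1P list (receptors, kinases, a lyase and transporters), S1pr1, the receptor lymphocytes use to leave tissue, was at 426, 407 and 390 CPM in sgRNA-P1, sgRNA-P2 and mock B cells and at 630 and 641 CPM in sgRNA-P1 and mock T cells. S1pr3 shares 45 exon bases with Gm32834 on the opposite strand, which had at most 13 reads in any library. None of the 6 list genes at 5 CPM in B cells passed 1.5-fold with either guide. With sgRNA-P1 against mock, 2 of the 6 lay above 0 and 4 below, with a median of -0.12 beside -0.01 over all genes. The receptor S1pr4 was at -0.22 [-0.31 to -0.12], the transporter Spns2 at -0.21 [-0.34 to -0.07] and the lyase Sgpl1 at -0.17 [-0.26 to -0.08], and S1pr1 was at 0.13 [0.08 to 0.17]. With sgRNA-P2, 3 of the 6 lay above 0 and 3 below, with a median of -0.02 beside -0.00 over all genes. S1pr4 was then at -0.07, Spns2 at -0.11, Sgpl1 at -0.09 and S1pr1 at 0.06. The list was not rerun with the length and GC trend subtracted.

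Cd36 (chromosome 5, 17986688 to 18093799, minus strand) encodes a receptor for fatty acids and oxidised lipoproteins. It was at 81.6 CPM [78.0 to 85.3] with sgRNA-P1, 77.4 CPM [72.8 to 82.1] with sgRNA-P2 and 72.7 CPM [68.7 to 76.9] in mock B cells, with 8 reads in sgRNA-P1 T cells and 2 in mock T cells. The sgRNA-P1 interval lay above that of mock, log2 0.17 [0.06 to 0.27], the highest of the 10 for that guide, and the sgRNA-P2 value was 0.09 [-0.03 to 0.21]. With the length and GC trend subtracted, the sgRNA-P1 value was 0.00.

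CD36 is also found on macrophages, platelets and endothelial cells. The 17 macrophage and monocyte markers summed to 31.2, 29.6 and 28.4 CPM in sgRNA-P1, sgRNA-P2 and mock B cells. Cd68 was the most abundant, at 8.41, 7.93 and 7.17 CPM. In the same order, 9, 11 and 10 of the 17 were under 1 CPM, and the others were at 1 CPM or more. Among those under 1 CPM were the complement genes C1qa, C1qb and C1qc, each at 0.396 CPM or less. The 9 platelet markers summed to 52.1, 53.7 and 53.4 CPM, most of it Itgb3. In each B cell library 6 of the 9 were under 1 CPM, with Pf4, Gp1bb and Treml1 at 0. The 10 endothelial markers summed to 351, 347 and 336 CPM, nearly all Pecam1. In each B cell library 8 of the 10 were under 1 CPM, with Emcn, Tie1 and Cldn5 at 0. The macrophage and endothelial sums have the same order over the B cell libraries as Cd36, and their part in its level was not tested.

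Myof (chromosome 19, 37887484 to 38032025, minus strand) encodes myoferlin, a ferlin family protein of membrane repair and fusion. It was at 95.3 CPM [91.4 to 99.3] with sgRNA-P1, 90.7 CPM [85.7 to 95.8] with sgRNA-P2 and 88.8 CPM [84.3 to 93.4] in mock B cells, against 0 reads in sgRNA-P1 T cells and 1 read in mock T cells. The 3 B cell intervals overlapped. The log2 fold change was 0.10 [0.01 to 0.20] with sgRNA-P1 and 0.03 [-0.08 to 0.14] with sgRNA-P2.

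**Figure D2:**
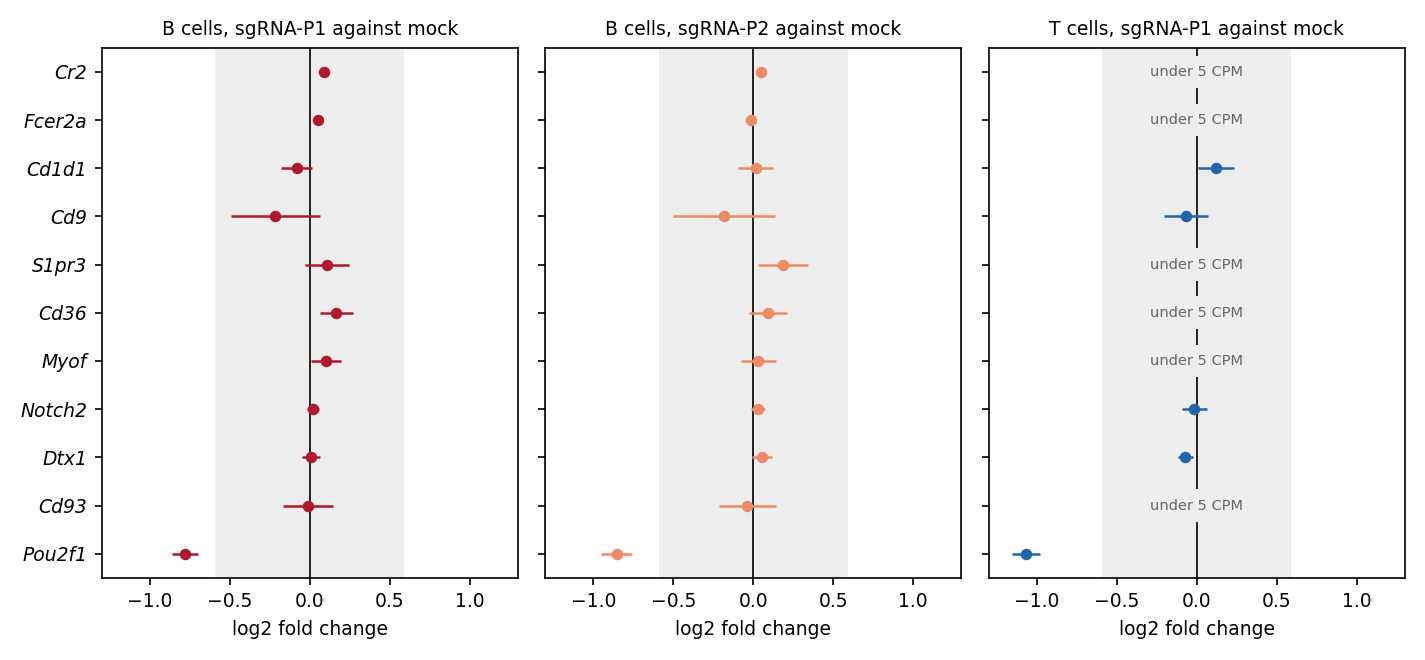
Log2 fold change of each gene and of Pou2f1 for each guide against mock, with 95% counting intervals. The grey band spans 1.5-fold in either direction. All 10 genes lie inside the band with both guides in B cells, as do the 4 genes that reach 5 CPM in T cells, while Pou2f1 lies outside at -0.78 and -0.85 in B cells and -1.06 in T cells.

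Notch2 (chromosome 3, 97920843 to 98057677, plus strand) differed little between the B cell libraries, at 576 CPM [566 to 586] with sgRNA-P1, 580.1 CPM [567 to 593] with sgRNA-P2 and 569 CPM [557 to 580.2] in mock. It was at 101.6 CPM with sgRNA-P1 and 102.8 CPM in mock T cells. Its log2 fold change was 0.02 [-0.02 to 0.06] with sgRNA-P1, 0.03 [-0.01 to 0.07] with sgRNA-P2 and -0.02 [-0.10 to 0.06] in T cells. It shares 541 exon bases with Gm42820 on the same strand, which had 5 to 55 reads.

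Dtx1 (chromosome 5, 120818267 to 120849992, minus strand) encodes Deltex 1, a ubiquitin ligase switched on by Notch. It was at 259.9 CPM [253 to 266] with sgRNA-P1, 269 CPM [260.04 to 277] with sgRNA-P2 and 259 CPM [251 to 266] in mock B cells, against 279 CPM [272 to 287] in sgRNA-P1 T cells and 294 CPM [288 to 299] in mock T cells. It was the one gene of the 10 within 1.5-fold between the cell types. The log2 fold change was 0.01 [-0.05 to 0.06] with sgRNA-P1, 0.06 [-0.01 to 0.12] with sgRNA-P2 and -0.07 [-0.12 to -0.03] in T cells, where it was -0.00 once the length and GC trend was subtracted.

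The Notch pathway list of 42 genes, which includes Notch2 and Dtx1, had 32 genes at 5 CPM for sgRNA-P1 against mock in B cells. None passed 1.5-fold, 16 lay above 0 and 16 below, and the median was -0.00 beside -0.01 over all genes. The values farthest from 0 were -0.27 for Dtx4, a relative of Dtx1, -0.23 for Lfng, a glycosyltransferase that tunes the response of Notch to its ligands, -0.18 for the ligase Mib2 and 0.17 for Rbpj. With sgRNA-P2 none of 33 passed and the median was 0.01. The value farthest from 0 was 0.50 [-0.00 to 0.99] for Aph1b, a part of the gamma-secretase that cuts Notch. Aph1b stood at 5.54 CPM with sgRNA-P2, against 3.91 CPM in mock. It therefore reached 5 CPM only in the library where it was higher. Dtx4 followed at -0.27. In T cells with sgRNA-P1, 1 of 31 passed, where 0.11% of all genes did: the RBPJ coactivator Maml3 at -0.63 [-0.94 to -0.34], which stood at 6.30 CPM with sgRNA-P1, against 9.76 CPM in mock.

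Between mock B and mock T cells, 5 of 33 Notch genes were higher by 1.5-fold and 8 lower, where 18.5% of all genes were higher and 18.4% lower. With sgRNA-P1 in both cell types, 5 were higher and 6 lower, beside 19.9% and 19.5% of all genes. The values of single genes that follow are for mock B over mock T cells. The receptor Notch2 was higher at log2 2.47, its ligand Dll1 at 4.82, the target Hes1 at 6.87, Maml3 at 0.74 and the protease Adam17 at 0.62. Dll1 was scarce in mock B cells too, at 6.19 CPM. In mock T cells Dll1 had 15 reads and Hes1 had 26. Lower were the receptor Notch1 at -3.08, the ligand Jag2 at -3.48, Lfng at -2.43 and its relative Mfng at -0.78, Dtx3 at -0.80, Dtx3l at -0.67, Numb, an inhibitor of Notch, at -0.66 and the repressor Spen at -0.61. Numb at -0.51 and Spen at -0.49 did not pass 1.5-fold with sgRNA-P1 in both cell types. Notch1 was at 34.7, 31.3 and 34.0 CPM in sgRNA-P1, sgRNA-P2 and mock B cells, against 276 and 287 CPM in sgRNA-P1 and mock T cells.

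**Figure D3:**
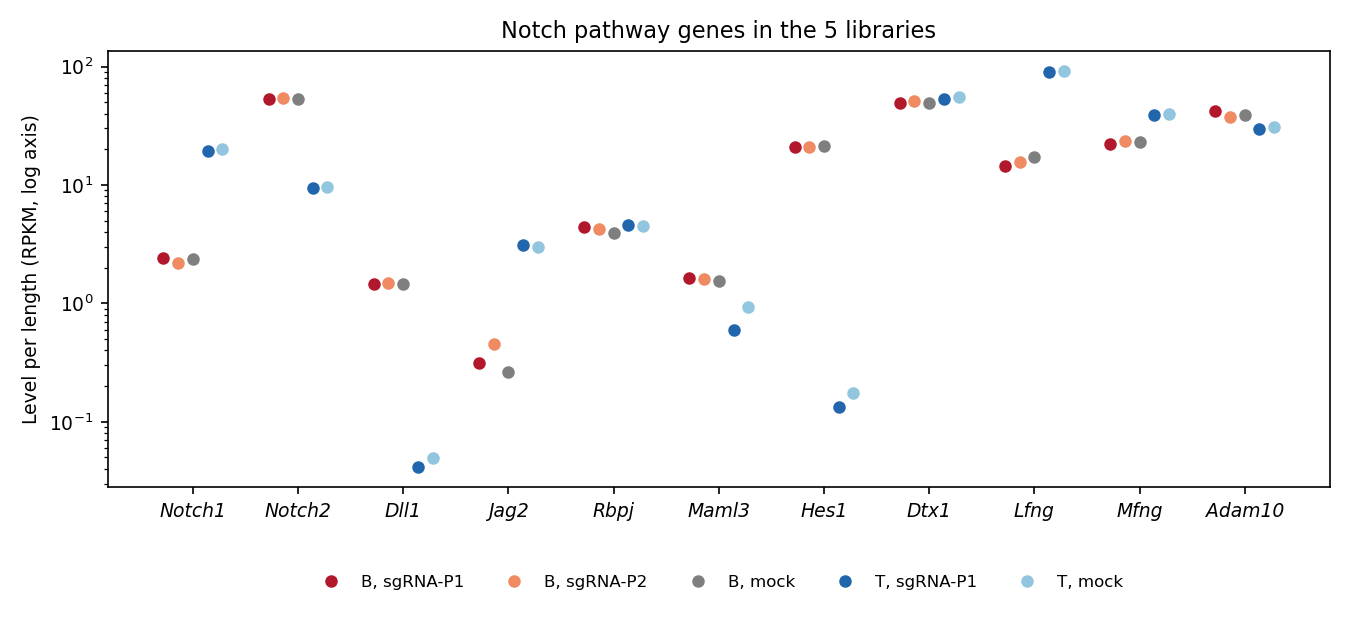
Level per gene length, in RPKM on a log axis, of Notch receptors, ligands, cofactors, targets and modifiers in the 5 libraries. Notch2 and Hes1 are higher in the B cell libraries, Notch1 and Lfng are higher in the T cell libraries, and Dtx1 lies at 49.1 to 51.0 RPKM in B and 53.0 to 55.7 RPKM in T cell libraries.

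Cd93 (chromosome 2, 148278560 to 148285483, minus strand) was nearly level over the B cell libraries: 33.8 CPM [31.5 to 36.2] with sgRNA-P1, 33.2 CPM [30.2 to 36.3] with sgRNA-P2 and 34.0 CPM [31.3 to 36.9] in mock B cells. In T cells it was at 0.498 CPM with sgRNA-P1 and 0.566 CPM in mock, from 20 and 41 reads. All 3 B cell intervals overlapped, with log2 fold changes of -0.01 [-0.16 to 0.15] for sgRNA-P1 and -0.04 [-0.22 to 0.14] for sgRNA-P2. Of 12 further genes of transitional and B-1 cells, 6 were at 5 CPM in B cells and none passed 1.5-fold. Vpreb3, a gene of early B cells, was at -0.23 with sgRNA-P1 and -0.13 with sgRNA-P2, and Cd24a, the heat-stable antigen of immature cells, at 0.18 and 0.07. CD93 is also found on plasma cells, and the 7 plasma cell markers summed to 753, 750.4 and 750.3 CPM in sgRNA-P1, sgRNA-P2 and mock B cells. Irf4, the most abundant, held 448, 440.4 and 429.6 CPM of these sums, and single markers at 5 CPM ran from -0.34 to 0.25 on the log2 scale for sgRNA-P1 against mock.

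**Figure D4:**
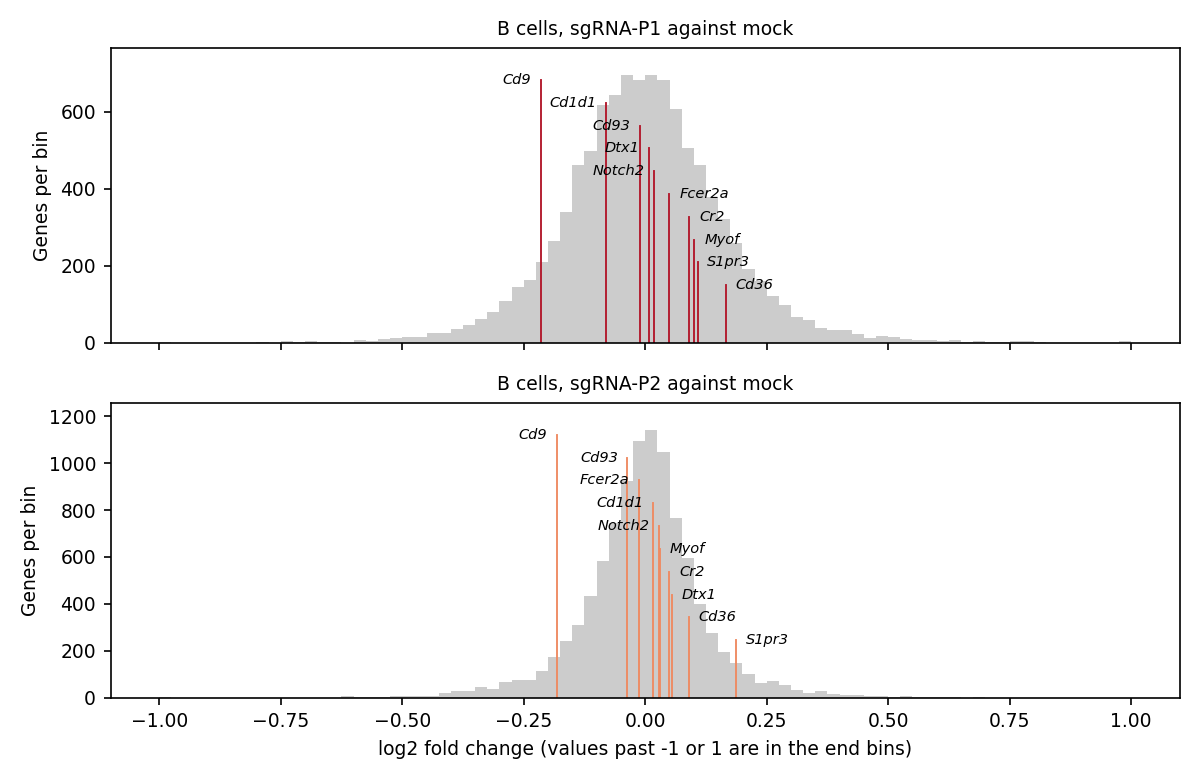
Log2 fold changes of all genes at 5 CPM or more (grey histograms, genes per bin) with the 10 genes marked by lines, for sgRNA-P1 (top) and sgRNA-P2 (bottom) against mock in B cells. Line height only separates the names. All 10 lines fall between the 5th and 95th percentile of all genes, from -0.21 to 0.17 with sgRNA-P1 and from -0.18 to 0.19 with sgRNA-P2. Near the ends are S1pr3 with sgRNA-P2, above 94.8% of all genes, and Cd9, above 8.68% with sgRNA-P1 and 6.72% with sgRNA-P2.

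Longer lists of the same cell states gave no gene past 1.5-fold with either guide. Of 17 other marginal zone genes, 5 lay above and 12 below mock with sgRNA-P1, with a median of -0.02 beside -0.01 over all genes. The farthest were Mzb1, a chaperone of antibody secretion, at -0.34 [-0.62 to -0.07] and Plac8 at -0.26 [-0.32 to -0.20]. For sgRNA-P2 against mock, Mzb1 was at -0.03 [-0.33 to 0.27] and Plac8 at -0.13 [-0.20 to -0.06]. With sgRNA-P2, 11 lay above and 6 below, with a median of 0.02 beside -0.00 over all genes.

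Of 17 other follicular genes, 13 lay above and 4 below mock with sgRNA-P1, with a median of 0.09 beside -0.01 over all genes. With sgRNA-P2, 12 lay above and 5 below, with a median of 0.03 beside -0.00. Both lists were not rerun with the length and GC trend subtracted, a step that moved Cr2 and Cd36 with sgRNA-P1. Small differences are common there, since 33.3% of all genes had an sgRNA-P1 interval without 0. The farthest with sgRNA-P1 were Id3, an inhibitor of E proteins, at -0.24, the E protein gene Tcf4 at 0.22, the complement regulator Cd55 at 0.22 and Klf3 at 0.21. With sgRNA-P2 these values were not repeated: Id3 was at -0.04, Tcf4 at 0.04, Cd55 at -0.04 and Klf3 at 0.05. Partners of CD21 on the B cell surface also stayed within 1.5-fold. The largest value in that list was 0.34 [0.13 to 0.55] with sgRNA-P1 for Cd46, which was scarce at 21.4, 20.3 and 16.9 CPM in sgRNA-P1, sgRNA-P2 and mock B cells.

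Set against each other, the 2 guides gave no gene of the 10 past 1.5-fold, while 0.397% of all genes passed. Cr2 was at log2 0.04 [0.02 to 0.07] and Fcer2a at 0.06 [0.03 to 0.09] for sgRNA-P1 over sgRNA-P2, the 2 intervals of the 10 that left out 0, beside 23.3% of all genes. The other 8 ran from -0.10 [-0.20 to 0.01] for Cd1d1 to 0.08 [-0.03 to 0.19] for Cd36. With the length and GC trend subtracted, Cr2 stood at -0.05 and Fcer2a at 0.10. In T cells, 0 of the 4 genes at 5 CPM passed 1.5-fold for sgRNA-P1 against mock, where 0.11% of all genes did. Cd1d1 was at 0.12 [0.01 to 0.23] and Dtx1 at -0.07 [-0.12 to -0.03], the 2 of the 4 whose intervals left out 0, beside 15.4% of all genes.

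A model over the 5 libraries had a term for cell type and a term for carrying a guide of either kind. It left 2 residual degrees of freedom and was the one test with any spread between libraries. It treats both guides, and both cell types, as sharing 1 effect. For the guide term, edgeR's quasi-likelihood test called 0 of the 10 genes, beside 0.0284% of all 17581 genes. None of the 10 had an unadjusted p under 0.05, the adjusted p was 0.9996 for each, and DESeq2 also called 0. The smallest unadjusted p was that of Cd9 at 0.145, with log2 -0.13.

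B cells differed from T cells far beyond the guide comparisons. The 10 genes were chosen as genes of B cell states, so setting their counts beside the shares of all genes is no test. Of the 10, 6 were under 1 CPM in both T cell libraries and reached 5 CPM only in B cells. For mock B against mock T cells 8 of the 10 genes were higher by 1.5-fold, where 18.5% of all genes were, and 1 was lower, where 18.4% were. For sgRNA-P1 B against sgRNA-P1 T cells the count was again 8 higher and 1 lower, beside 19.9% and 19.5% of all genes. The 3 B cell libraries lay above both T cell libraries for 8 genes and below them for 2, Cd9 and Dtx1. Over all genes, 40.9% lay above and 41.9% below without overlap.

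Cr2 was 1733-fold higher in mock B than in mock T cells, log2 10.76 [10.24 to 11.39], and Fcer2a 2906-fold, log2 11.50 [10.82 to 12.57]. With 3 reads taken as the floor for the 0 reads in mock T cells, S1pr3 was at least 1017-fold higher. Its 95% counting interval reached lower, to log2 8.69 or 412-fold, and had no upper limit. Cd36 was at log2 10.78 [8.88 to 16.67] against 2 reads, and Myof at 11.65 with a lower limit of 9.77 and no upper limit against 1 read. With sgRNA-P1 in both cell types, Myof was at least 1276-fold higher by the same floor, with an interval that reached down to log2 9.02 or 518-fold and had no upper limit. Cd36 was then at 8.51 [7.32 to 10.56] against 8 reads. Cd93 was 58.7-fold higher in mock B than in mock T cells and Notch2 5.53-fold, while Cd1d1, which T cells also express, was 1.92-fold higher.

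Cd9 ran the other way, at log2 -1.58 [-1.81 to -1.37] in mock B over mock T cells and -1.73 [-1.95 to -1.52] with sgRNA-P1 in both. Other tetraspanins moved in both directions: Cd37 was higher in mock B cells at 2.43 and Cd81 at 2.63, whereas Cd82 was lower at -0.90, Tspan3 at -0.81 and Tspan14 at -0.62. CD9 is also found on platelets, whose 9 markers summed to 182 CPM in sgRNA-P1 and 176 CPM in mock T cells, against 53.4 CPM in mock B cells. Most of that was Itgb3, and Pf4, Gp1bb and Treml1 were at 0 in all 5 libraries. In each library 6 of the 9 were under 1 CPM. The 2 platelet markers at 5 CPM were both lower in mock B than in mock T cells, at log2 -1.85 and -1.15. The part of platelet RNA in the Cd9 level was not tested. Dtx1 was at -0.18 [-0.24 to -0.13] in mock and -0.10 [-0.16 to -0.05] with sgRNA-P1. Subtracting the length and GC trend turned Dtx1 to 0.24 and 0.30, so its direction between cell types depends on that step.

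**Figure D5:**
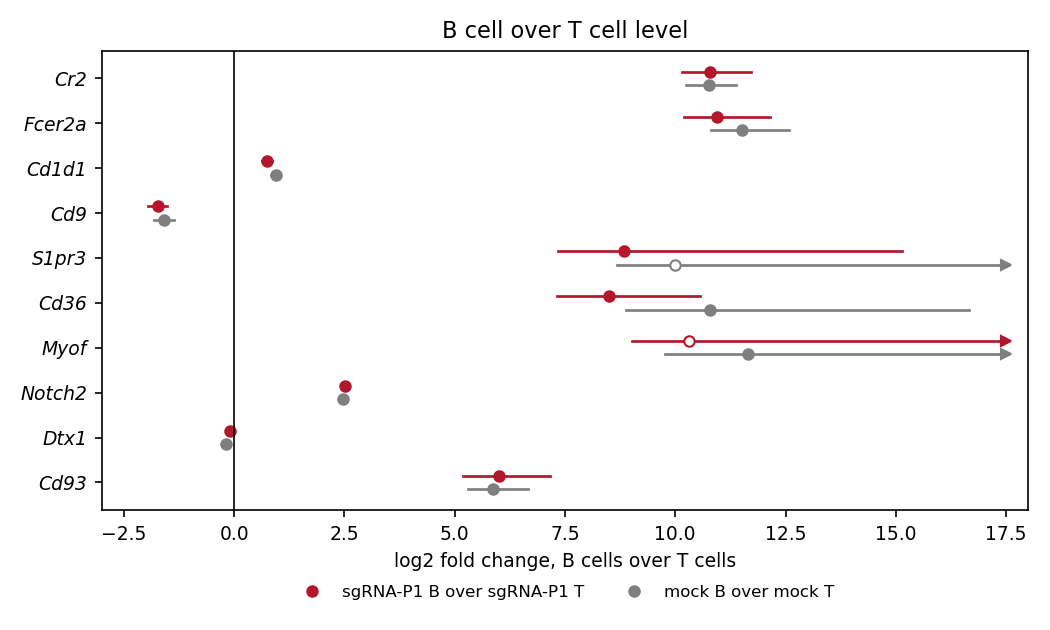
Log2 fold change of B over T cells for each gene, with sgRNA-P1 in both (red) and mock in both (grey), and 95% counting intervals. Open points have 0 reads in T cells and are drawn with 3 reads in their place, intervals can reach below them, and arrows mark intervals with no upper limit. Most genes lie far right of 0, Cd9 lies at -1.73 and -1.58, and Dtx1 is close to 0.

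In the model over the 5 libraries, the cell type term of edgeR's quasi-likelihood test called all 10 genes after adjustment over all genes. Of these, 8 were higher and 2 lower in B cells, where 31.8% of all genes were called higher and 32.4% lower. The choice of the 10 as genes of B cell states bears on this count too. Cr2 had an adjusted p of 5.52e-19, Notch2 of 3.05e-15 at log2 2.49, Cd1d1 of 6.57e-09 at 0.86 and Cd9 of 8.11e-11 at -1.66. Dtx1 was the weakest at -0.12 with an adjusted p of 0.0385, with the 3 B cell libraries below both T cell libraries, and this call was lost without the mock B, the sgRNA-P1 T or the mock T library, at -0.08, -0.19 and -0.08. Whether the libraries stem from separate cultures or animals is not stated in the labels. These p-values rest on the spread that the model leaves between 5 libraries, moderated by the spread of all genes tested. They do not measure a spread between replicates of a group.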

How the data were processed

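Poly(A) RNA was sequenced, and the authors deposited whole-number read counts for each gene in 1 table. HISAT2 and featureCounts and the builds hg38 and mm39 are named in the submitters' processing notes. The sources used here do not give versions, the strand setting or the rule for reads that map to several places. The 10 genes and all gene lists were chosen with earlier results of these data known. All 10 genes were named, with Pou2f1, list members past 1.5-fold or else up to 4 farthest from 0, and the most abundant marker of each other cell type. Some defining markers were named after their values were seen. A result that the naming rule takes is not reported here.

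The 2 columns of each group had a mean chi-square per gene of 0.00229 to 0.00283 and were summed. Counts were scaled by TMM (edgeR 4.0.16, R 4.3.3; factors 0.979 to 1.021). Log2 fold changes used a prior of 1 read among genes with 5 CPM in the higher group. Totals under 10 reads were mostly even (72.0 to 74.8%), so exact 95% intervals used reads divided by 2. The floor for 0 reads was 3 reads. The model over 5 libraries used edgeR's quasi-likelihood test with Benjamini-Hochberg adjustment, and DESeq2 1.42.0 as an alternative. Transcripts of GENCODE M21, on another build, gave GC content and shared words only. Scripts were tested on simulated data.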

Additional observations from a re-analysis of the deposited data

How the results depend on the processing

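No paired analysis was possible because each group is 1 library and its numbered columns are parts of that library. The counts of the 10 genes past 1.5-fold held under every alternative run, with 1 exception: without the filter on level, 3 of the 10 (Fcer2a, S1pr3 and Cd36, with 0 to 25 reads each) passed in T cells for sgRNA-P1 against mock, and 0 with it. Counts over all genes moved. For sgRNA-P1 against mock in B cells, 74 genes passed, but 6220 without the filter, 15 at 20 CPM, 39 with the length and GC trend subtracted and 603 at a difference of 25%. For sgRNA-P2, 27 passed, but 7125 without the filter, 2 at 20 CPM and 317 at a difference of 25%. Between the guides, 40 passed, but 6436 without the filter, 6 at 20 CPM, 24 with the trend subtracted and 386 at a difference of 25%. In T cells, 11 genes passed, but 6561, 6 and 135 for no filter, 20 CPM and 25%. For B against T cells, 3996 (mock) and 4266 (sgRNA-P1) became 13506 and 15308 without the filter, and 2524 and 2726 at 20 CPM. The guide term called 5 genes, but 2 with total reads, 32 without the filter and 3 to 18 with a library left out. The cell type term called 9 to 10 of the 10 genes with a library left out. Of the alternative values of single genes, 620 stayed, 16 moved and 3 lost their call. The runs include those on 1 column of each pair, which are parts of the same library and could hardly move. For the guide term, which called 0 of the 10 genes, no call could be lost. The 620 is therefore not a count of independent checks. Depth limits Cd9 most among the B cell values, and the T cell values of 6 genes rest on 0 to 54 reads.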
